A study of Caenorhabditis elegans with 4 samples.

Results

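NHR-237 is a member of the nuclear hormone receptor family, here studied by chromatin immunoprecipitation and sequencing (ChIP) in L2 larvae of Caenorhabditis elegans. The regions described are the weaker autosomal regions that both ChIP replicates contained: regions of replicate 1 on chromosomes I, II, III and IV that share at least 1 bp with a region of replicate 2 and no bp with the combined list of the series, with overlapping regions merged. They were chosen by their presence in both replicate lists and by their absence from the combined list, which rests on the same signal. Of the 8344 regions of replicate 1, 2933 lay on V (also an autosome), X or mitochondrial DNA, which the rule leaves out. The other 5411 lay on chromosomes I to IV, 5152 of them outside the combined list. The rule took 1939 of these 5152, and merging left 1817 regions, called members below. The members covered 921 kb, or 1.49% of the 61.6 Mb spanned by chromosomes I to IV. The combined list held 322 regions, 217 of them on these 4 chromosomes.

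The series has 4 samples, 2 ChIP samples and 2 input samples, each pair numbered replicate 1 and replicate 2. All come from hermaphrodites of strain OP228, outcrossed 3 times and grown at 20 °C. The strain has the unc119(ed3) allele and carries wgIs228, introduced by bombardment, in which nhr-237 is joined to TY1, EGFP and FLAG tags and which also holds unc119. Every sample, inputs included, therefore carries the tagged transgene in the unc119(ed3) background, and none of the 4 is an immunoprecipitate from untagged worms. Chromatin was taken from whole larvae, so that weak binding in many cells and strong binding in few cells cannot be told apart. Nothing in the labels tells whether the replicates were separate cultures.

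Nuclear hormone receptors bind DNA through a zinc finger domain and regulate transcription, many of them in response to small lipophilic ligands. C. elegans has a much enlarged family of these receptors, most of them without a known ligand. A peak caller asked for a long list reports, besides true binding sites, places where read density is only slightly raised. The irreproducible discovery rate, which the lists name as their source, is a procedure that scores regions by how alike their order is in replicates. How the combined list was drawn from the replicates is not stated. On worm autosomes the outer parts, or arms, recombine often and are rich in repeats, and the centres are richer in conserved genes.

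Most of these regions were weak by the authors' own score. The score was read as the −log10 of a q value, a false discovery rate, so that a higher score means a stronger region. The median member had a score of 0.0650 in replicate 1, which corresponds to a q value of 0.861, and its partner in replicate 2 had a score of 0.107, or a q value of 0.781. Replicate 1 regions outside the combined list with no partner had a median q value of 0.914, and replicate 1 regions inside the combined list one of 0.00185. In the authors' order of strength the members ran from place 179 to place 8328 of replicate 1, with a median of 3739. Their partners ran from place 142 to place 21477 of replicate 2, with a median of 8365. The members thus ran from regions that share the highest score of a list, 9 in replicate 1 and 13 in replicate 2, down to nearly its end.

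A q value of 0.05 or less was reached by 55 of the 1817 members in replicate 1 (3.03%), where 4.88% of all replicate 1 regions on the 4 chromosomes reached it. In replicate 2 it was reached by 83 partners (4.57%), against 2.70% of all replicate 2 regions on these chromosomes. Of the 3034 merged regions with no partner, 23 reached it in replicate 1 (0.758%). The combined list removes most strong regions, so that these shares follow in part from the rule and nothing is read from them. In both replicates at once a q value of 0.05 or less was reached by 3 of the 1817 members (0.165%). No share of all regions was taken for both replicates at once, so nothing is read from this count either. The 3 lie at I 7475116 to 7475605, III 5871670 to 5872159 and IV 14032516 to 14033005 (WS220 build, as for all positions here).

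The region on chromosome I at 7475116 to 7475605 had the best worse place of all members, that is, the smallest value of the larger of its places in the replicates. It stood at place 285 of replicate 1 with a score of 2.06 (q value 0.00879) and at place 383 of replicate 2 with a score of 1.42 (q value 0.0379). Its centres in the replicates lay 9.0 bp apart, and the nearest combined region was 24.7 kb away. The region on chromosome III at 5871670 to 5872159 stood at places 243 and 432 of replicates 1 and 2 with scores of 2.73 and 1.39. Its centres were 269 bp apart, and it was 192 kb from a combined region. The region on chromosome IV at 14032516 to 14033005 stood at places 377 and 455 with scores of 1.55 and 1.37. Its centres were 368 bp apart, and it lay 788 bp from a combined region. Of these members with a low q value in both replicates, 1 had nearly coincident centres and the other 2 had centres well apart.

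For each chromosome, the 5 members with the best worse place were singled out. On chromosome I the other 4 were 14113132 to 14113621 (places 607 and 230 in replicates 1 and 2), 13297557 to 13298046 (628 and 541), 11374182 to 11374671 (306 and 635) and 9850908 to 9851598 (768 and 292). On chromosome II the 5 were 11619748 to 11620496 (places 315 and 685), 3521261 to 3521750 (740 and 378), 15262808 to 15263496 (797 and 411), 6047567 to 6048056 (605 and 811) and 11967109 to 11967896 (365 and 813). None of the members on II reached a q value of 0.05 in both replicates. The region at 15262808 to 15263496 lies at 99.9% of the span of chromosome II, next to its right end.

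On chromosome III the other 4 were 1418620 to 1419109 (places 498 and 407), 4649407 to 4649896 (522 and 400), 9782928 to 9783417 (547 and 585) and 9456000 to 9456489 (674 and 630). The first of these lay 428 bp from a combined region. On chromosome IV the other 4 were 4049498 to 4049987 (places 537 and 549), 9385918 to 9386407 (659 and 557), 3384514 to 3385003 (677 and 335) and 11149521 to 11150010 (416 and 712). Of these 20 members, 16 were single regions of 490 bp and 4 were merged from 2 regions. Genes at these positions were not assigned, because the gene table in hand belongs to another genome build.

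At the limits of the rule, 13 member regions overlapped replicate 2 by 10 bp or less, the smallest overlap being 3 bp. Just outside it, 10 regions without a partner came within 10 bp of a replicate 2 region, the smallest distance being 1 bp. The member nearest to a combined region was 357 bp away from it. Every member region was 490 bp wide before merging, and 1698 members consisted of 1 region, 117 of 2, 1 of 3 and 1 of 4.

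The size of the shared set was set beside even placement. Outside the combined list replicate 1 had 5152 regions on the 4 chromosomes, and 1939 of them met replicate 2 (37.6%, 95% Wilson interval 36.3 to 39.0%). If a 490 bp region is put at every allowed position of its own chromosome in turn, 19.3% of positions meet a replicate 2 region, which corresponds to 996 regions. The observed share was 1.95 times this. Among positions within 20 kb of each region's own place, 21.1% meet replicate 2, and the observed share was 1.78 times this. Seen from the longer list, 2157 of 13402 replicate 2 regions met replicate 1 (16.1%, 15.5 to 16.7%), against 7.95% of positions. Even placement alone would therefore give a list about 51.4% as long as the observed one. Sharing is the rule itself, so these shares describe the list and are not evidence about it.

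Sharing was most frequent among the stronger regions. When the 5152 regions were put into 10 equal groups in the authors' order, 53.7% of the strongest group met replicate 2 (277 of 516, 49.4 to 57.9%) and 28.0% of the weakest did (144 of 515, 24.3 to 32.0%). The groups between them held 31.7 to 43.3% shared regions. The weakest group, at places 7554 to 8343 of replicate 1, also lay above the 19.3% of positions. Because sharing is the rule itself, these shares too describe the list and are not evidence about its weaker regions. Even placement takes no account of where genes or open chromatin lie.

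**Figure D1:**
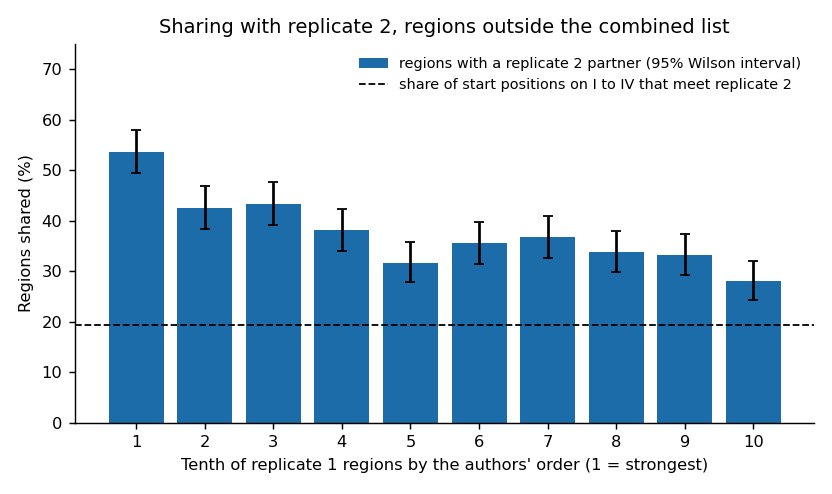
Share of replicate 1 regions outside the combined list that overlap replicate 2 (vertical axis, %), in 10 equal groups of the authors' order from strongest to weakest (horizontal axis), with 95% Wilson intervals and, as a dashed line, the 19.3% of positions that meet replicate 2. The strongest group stands at 53.7%, the weakest at 28.0%, and all 10 lie above the line. Sharing is the rule by which members were chosen, so the figure describes the list only.

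Partners were more closely aligned than an overlap of 1 bp requires. The distance between the centre of a member's best-placed region and that of its best-placed partner had a median of 157 bp (quartiles 59.0 and 292 bp). Of the 1817 members, 662 had centres within 100 bp (36.4%, 34.3 to 38.7%), against 20.2% if a 504 bp partner is put at every position that overlaps a 490 bp region. Centres less than 50 bp apart were found for 22.2% of members against 9.97% of positions, and centres 450 bp or more apart for 4.18% against 9.47%. For the 257 replicate 1 regions inside the combined list that had a partner, the share within 100 bp was 71.2% (65.4 to 76.4%) and the median distance 57.0 bp. The alignment of the members thus lay between even placement and the regions kept in the combined list, with intervals that do not overlap. The position of the partner within the overlap was not used by the rule.

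**Figure D2:**
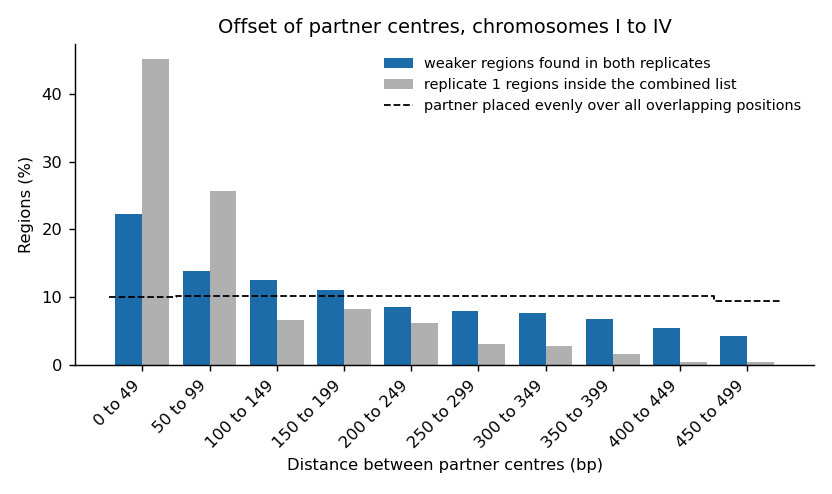
Distance between the centres of partners in the replicates (horizontal axis, bp, in steps of 50) and share of regions (vertical axis, %) for the 1817 members (blue), the 257 replicate 1 regions inside the combined list (grey) and partners at every overlapping position (dashed). Blue bars fall from 22.2% at less than 50 bp to 4.18% at 450 bp and more, while the dashed line is nearly level.

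Better-placed partners in replicate 2 were more closely aligned. In the 455 members whose partners were placed best in replicate 2, 44.0% had centres within 100 bp (39.5 to 48.5%), and in the 454 whose partners were placed last 31.3% did (27.2 to 35.7%). By their place in replicate 1 the same shares were 39.8% (35.4 to 44.3%) and 34.8% (30.6 to 39.3%), intervals that overlap. All 8 of these groups lay above the 20.2% of positions. The chromosomes ranged from 32.9% on III (28.9 to 37.1%) to 38.7% on II (34.2 to 43.5%), with overlapping intervals.

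The scores of partners agreed only weakly. Across the 1817 members Spearman's rho between the replicate 1 score and the partner's score was 0.132 and Pearson's r was 0.127. Both describe regions, which share their 2 libraries and are not replicates, and absence from the combined list, by which members were chosen, may itself depend on the scores. Without the 22 pairs in which a score equals the highest of its list, rho was 0.124. When members were put into 4 equal groups by their place in each replicate, 153 of the 455 strongest in replicate 1 had a partner among the strongest group of replicate 2 (33.6%, 29.4 to 38.1%), where unrelated orders give 25%. Of the 454 weakest in replicate 1, 87 had one (19.2%, 15.8 to 23.0%). From the strongest group to the weakest, the median place of the partner was 6747, 8010, 9492 and 9188, so it did not worsen steadily.

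**Figure D3:**
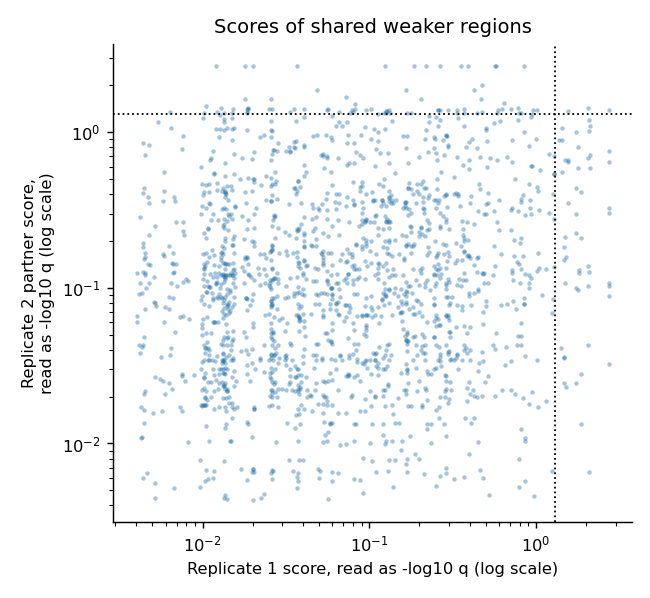
Score of each of the 1817 members in replicate 1 (horizontal axis, log scale) and of its best-placed partner in replicate 2 (vertical axis, log scale), both read as −log10 of q. Dotted lines mark a q value of 0.05, and 3 members lie beyond both lines. The cloud has almost no slope, with a rho of 0.132.

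Chromosome III held the most members per Mb. It had 499, or 36.2 per Mb, and chromosomes I, II and IV had 430, 421 and 467, or 28.6, 27.6 and 26.7 per Mb. Its share of the members was 27.5% (25.5 to 29.6%), against 24.4% (22.9 to 25.9%) of the regions with no partner and 22.4% of the span. Both whole lists were also densest on III, so that more positions there meet replicate 2. The share of positions was 21.2% on III and 18.1 to 19.3% on the others, and the observed shares were 40.4% (37.8 to 43.1%) on III and 36.3 to 37.3% on the others. Sharing relative to even placement was therefore 1.91 times on III, 1.93 on I, 1.94 on II and 2.02 on IV. The higher density of III was not accompanied by a higher ratio to even placement. In percentage points, however, the observed share lay furthest above the share of positions on III, so the order depends on the measure. These differences between chromosomes were not tested.

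The arms and centres of the chromosomes were compared with the centre taken as the middle 50% of the span. Of the 1817 members, 868 were centred there (47.8%, 45.5 to 50.1%), against 48.2% of the regions with no partner (46.4 to 49.9%), 46.1% of the combined regions (39.6 to 52.7%) and 47.2% of the replicate 2 list. Of the 4 chromosomes, III alone had an interval that leaves out 50%. There 209 of 499 members were in the centre (41.9%, 37.6 to 46.3%), against 45.6% of regions with no partner (42.0 to 49.2%). Chromosomes I, II and IV had 51.4, 50.4 and 48.4% of their members in the centre, each with an interval that includes 50%, and 659 of their 1318 members together (50.0%, 47.3 to 52.7%). The interval over all members only just includes 50%, and whether it does depends on the processing. Without merging the centre share differed from even placement by -2.40 percentage points (interval -4.61 to -0.173), and starting from replicate 2 it differed by -2.37 points (-4.65 to -0.0842). In the better-placed 50% of each list the share was 51.6%, on the other side of even placement.

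**Figure D4:**
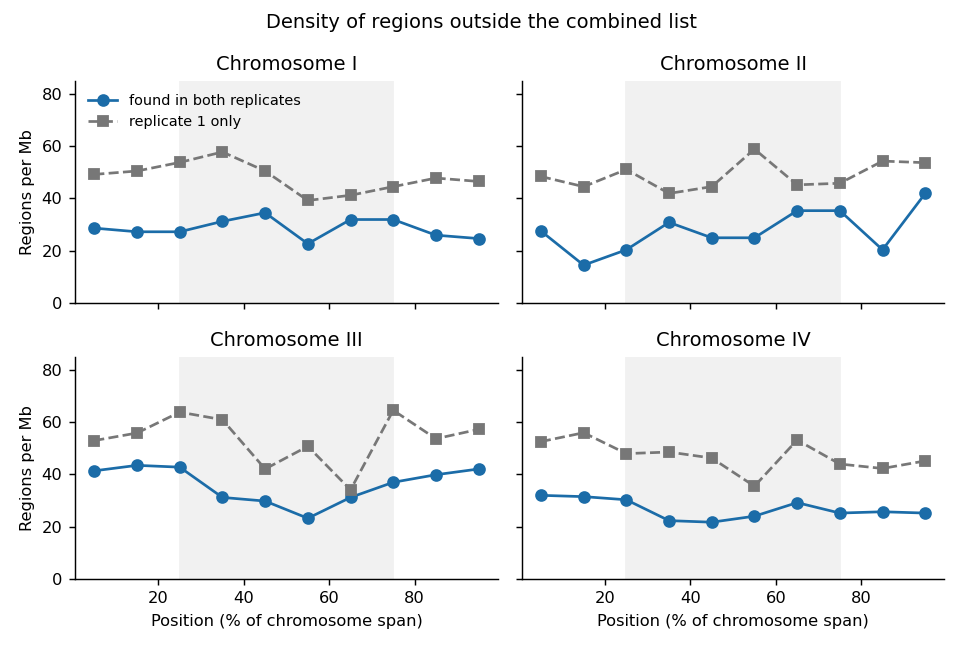
Regions per Mb (vertical axis) in 10 equal parts of each chromosome (horizontal axis, % of span), for members found in both replicates (blue) and regions found in replicate 1 alone (grey, dashed), both outside the combined list. The middle 50% is shaded. On chromosome III members fall to 23.2 per Mb in the sixth part and reach 43.5 per Mb in the second, and on chromosome II they range from 14.4 to 41.9 per Mb.

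On chromosome III the members were densest toward both ends. The left arm had 44.1 per Mb, the right arm 40.1 and the centre 30.3 per Mb. The replicate 2 list followed the same course, with 273, 269 and 221 regions per Mb. So did the regions with no partner, with 56.9, 59.8 and 48.9 per Mb. Members need a replicate 2 partner, so their density is tied by the rule to that of replicate 2. Chromosome II was uneven in another way, with 21.7 members per Mb in the left arm, 27.8 in the centre and 33.0 in the right arm. There too the replicate 2 list rose from left to right (195, 206 and 249 per Mb), as did the regions with no partner (45.6, 49.2 and 51.3 per Mb). The second part of 10 on chromosome II had 14.4 members per Mb and the last 41.9, the lowest of all 40 parts and the highest outside chromosome III. Chromosome IV had 31.1 members per Mb in its left arm against 25.8 in the centre and 24.0 in the right arm. Replicate 2 was densest in the same arm (225, 200 and 207 per Mb), and so were the regions with no partner (54.7, 45.1 and 43.9 per Mb). On chromosome I the members differed little, with 28.2, 29.4 and 27.4 per Mb, while replicate 2 was densest in the left arm (251, 214 and 221 per Mb).

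As a ratio to even placement within the same part, sharing was somewhat higher in the centres. Over the 4 chromosomes 37.4% of regions in the centres were shared (35.5 to 39.3%), against 37.9% in the arms (36.1 to 39.7%), so that the shares themselves were alike. Fewer positions meet replicate 2 in the centres, 18.2% against 20.6% in the arms. The ratio was thus 2.06 in the centres and 1.84 in the arms. By chromosome it was 2.09 in the centre of I, against 1.65 and 1.92 in its left and right arms, and 2.12 in the centre of IV, against 1.87 and 1.97. On II it was 1.98 in the centre, against 1.92 and 1.84, and on III 2.04, against 1.83 and 1.74. The centre had the highest ratio on each of the 4 chromosomes. Measured in percentage points, however, the observed share on II lay further above the share of positions in the right arm than in the centre. On I, III and IV the centre lay furthest above by this measure too, on III only just ahead of the left arm. The order within a chromosome thus depends in part on the measure. These differences between centres and arms were not tested.

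Members lay nearer to combined regions than even placement gives, at short range. Within 10 kb of a combined region there were 187 of 1817 members (10.3%, 8.98 to 11.8%), against 7.78% of regions with no partner (6.88 to 8.79%) and 6.36% of allowed positions. The ratio to even placement was 2.18 within 1 kb (27 members), 1.89 within 5 kb (112 members), 1.62 within 10 kb, 1.38 within 20 kb and 1.06 within 100 kb. The excess was thus concentrated close to the combined regions. Members need a replicate 2 partner, and replicate 2 regions outside the combined list were themselves within 10 kb more often than positions (7.48% against 6.30%). The nearness of members is therefore tied in part by the rule to that of replicate 2. Over the whole range the members were hardly nearer, with a median distance of 93.3 kb, against 101 kb for regions with no partner and 103 kb for positions. On III the members were farther than the regions with no partner, at a median of 75.1 against 68.7 kb. On I, II and IV they were nearer, at 88.3, 83.7 and 139 kb against 102, 93.0 and 153 kb.

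**Figure D5:**
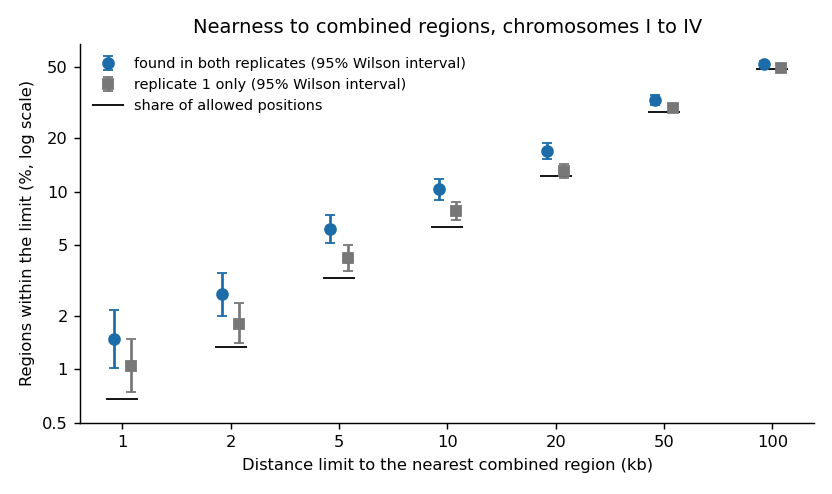
Share of regions within a given distance of the nearest combined region (vertical axis, %, log scale) for limits of 1 to 100 kb (horizontal axis), for members (blue circles) and replicate 1 regions with no partner (grey squares), with 95% Wilson intervals, and for all allowed positions (black lines). Members lie at 10.3% within 10 kb, against 7.78 and 6.36%, and at 52.1% within 100 kb, against 49.7 and 48.9%. The log scale makes the last of these differences look small.

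Each of the 4 chromosomes had more members within 10 kb than positions. The shares were 11.6% on I (8.93 to 15.0%), 9.26% on II (6.85 to 12.4%), 13.0% on III (10.4 to 16.3%) and 7.07% on IV (5.08 to 9.76%), against 6.58, 6.54, 8.02 and 4.24% of positions. All 4 intervals lie above the share of positions. Members placed best in replicate 1 were near a combined region more often than those placed last. Of the 455 members placed best in replicate 1, 67 lay within 10 kb (14.7%, 11.8 to 18.3%), and of the 454 placed last 35 did (7.71%, 5.60 to 10.5%). The groups by replicate 1 place between them were at 9.47 and 9.25%. By the partner's place in replicate 2, from best to last, the shares were 12.7, 10.1, 8.37 and 9.91%, so that they did not fall steadily.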

How the data were processed

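The deposited files used are 3 lists of regions, 1 for each ChIP sample and 1 combined, in WS220 positions per the file headers. Per the file headers and source column, SPP and the irreproducible discovery rate (IDR) were used. The aligner, versions, thresholds and role of the inputs were not given in the sources used here. The score deposited by the authors in the replicate lists was read as the −log10 of a q value, because the highest score (2.73 and 2.67), tied over 271 and 236 regions, equals −log10(1/(2k − 1)) for k tied regions. No header states the unit. The combined list's deposited score was not used. Order numbers in the names were read as the authors' order of strength. The lists give no read counts, so depth is unknown.

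A chromosome's span was taken to run to its last region end in any of the lists. Shares under even placement are exact counts over every start position of the region's own chromosome, for a width of 490 bp (504 bp from replicate 2), leaving out positions that overlap a combined region. No random draws and no p-values were used. The arithmetic was tested on simulated data. Wilson intervals (95%) cover counting error only and treat regions as independent, which neighbours are not. They do not measure the spread between the 2 samples. A merged member takes the place, score and partner of its best-placed region, the partner being the best-placed overlapping region of replicate 2. The 5 members named per chromosome are those with the smallest value of the larger of their 2 places. The members and comparisons were chosen with earlier results of these data known. Calculations used Python 3.11.15, numpy 2.4.6, scipy 1.17.1, pandas 2.3.3 and matplotlib 3.10.9.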

Additional observations from a re-analysis of the deposited data

How the results depend on the processing

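Of 58 recomputed values, 38 stayed within the interval of the reported value, or within 1.5 times it for counts, 20 did not, and 0 changed direction where the interval had left even placement to one side. Some of the 38 could not differ. The offset in regions of the commonest width and the sharing without merging used the same regions as the reported values. Differences below are in percentage points from even placement. With a 50% overlap the excess of centres within 100 bp was 13.2, against 16.2 as reported, and within 50 bp it was 12.5. The better-placed 50% of each list left 637 members, a centre share 1.65 above even placement (reported -2.23) and a centre offset excess of 20.9. Cutting replicate 2 to the length of replicate 1, chosen after seeing the data, left 904 members and an offset excess of 20.5. The sharing excess was then 11.1 (reported 18.3), from 18.8% of regions against 7.73% of positions. Starting from replicate 2 the sharing excess was 8.15, from 16.1% against 7.95%, and for placement within 20 kb it was 16.5, from 37.6% against 21.1%. As a ratio to even placement, the shorter replicate 2 list and the start from replicate 2 lay above the reported value (37.6% against 19.3%). Placement within 20 kb lay below it. Lists from a single replicate, with no sharing asked, held 4818 to 11541 regions. Their excess within 10 kb of a combined region was 1.18 to 2.36 (reported 3.93), their excess on III 2.22 to 3.09 (reported 5.09) and their centre difference -2.95 to -1.97. With the q limit at 0.1, 80 members passed in replicate 1, 130 in replicate 2 and 8 in both, and with it at 0.01, 21, 13 and 0. The share of all regions was not taken at these limits, so nothing is read from these counts. The causes of the differences from the reported values were not tested. No paired analysis was possible because only the ChIP samples have region lists here and no result comes from a fit of 2 groups. The unknown depth of each library limits what the absence of a partner can say.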

Other observations

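The following values were chosen after they were seen. Counted in 60 windows of 1 Mb, the members ranged from 18 to 47 with a median of 27.5. The fullest windows were both on chromosome III, from 1 to 2 Mb and from 3 to 4 Mb, with 47 members each beside 48 and 68 regions with no partner. The emptiest was on chromosome II from 2 to 3 Mb, with 18 members beside 48 regions with no partner. The nearest other member was a median of 9.09 kb away, and 146 members (8.04%) had another within 1 kb. Neither value was set beside even placement, so nothing about clustering is read from them.

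The member merged from 4 regions was the widest, at IV 1857558 to 1859037 (1480 bp). Its best region stood at place 2830 of replicate 1 and its partner at place 1890 of replicate 2. The member merged from 3 regions, at I 13650474 to 13651578, stood at place 571 of replicate 1 while its partner was at place 18429 of replicate 2, and it lay 2.05 kb from a combined region. The member placed best in replicate 1, at I 4789793 to 4790282 (place 179), had a partner at place 1201. The member whose partner was placed best in replicate 2, at I 5313593 to 5314082 (place 142), was itself at place 1566 of replicate 1. Both had centres more than 200 bp apart, 264 and 360 bp.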
